A study of Mus musculus with 13 samples.

Results

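The scavenger and endocytic receptors of liver sinusoidal endothelial cells (LSEC) are described here by 9 genes, Stab1, Stab2, Mrc1, Lyve1, Fcgr2b, Clec4g, Cd36, Scarb1 and Colec12, of the 55353 genes listed in the files. They were taken by name as known uptake receptors of these cells. Unique molecular identifiers (UMIs), which tag single captured RNA molecules, were counted in barcodes with at least 1500 UMIs. A barcode was taken as endothelial if it held at least 1 UMI of Pecam1 or Cdh5, no UMI of the leukocyte gene Ptprc and none of the bile duct gene Epcam. The gate held 30886 of 95563 barcodes. Levels are given as CPM, the UMIs of a gene in the summed barcodes of a gate and library, scaled to a total of 1000000.

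Liver cells of male C57BL/6J mice aged 6 to 12 weeks were captured in droplets for 3′ scRNA-seq (10x Genomics), in a study of how cells of the bile duct niche change in cholangitis. The mice received chow with 0.1% DDC, a compound that injures bile ducts, for 3, 5, 9, 19 or 25 days (D3 to D25), or none (D0). Each time point has 1 library of isolation protocol A and 1 of protocol B, and a library is named by both, as D0 A, with D19 B standing for a library whose label gives day 18. A 13th library, STOP, was made with protocol B after 18 days of DDC and 7 days of recovery. Steady state is D0 (2 libraries), onset D3 and D5 (4 libraries) and progression D9, D19 and D25 (6 libraries), so DDC diet has 10 libraries. Protocol A pooled equal parts of sorted fractions, among them Lyve-1+ cells and Cd31+ Lyve-1- cells, whereas protocol B pooled a stellate cell preparation with Epcam+, Itgax+ Cd64- and Cd3e+ Lyve-1- cells. The antigen encoded by Lyve1 was therefore used in both sorts. The labels do not say how many mice made a library, and the p-values measure the spread between libraries, which need not be independent animals.

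LSEC line the hepatic sinusoids as a fenestrated endothelium without an organized basement membrane and are among the most active endocytic cells of the body. Together with Kupffer cells, the resident macrophages of the sinusoids, they clear waste macromolecules from portal and systemic blood. Their receptors bind ligands such as modified lipoproteins, denatured collagen, hyaluronan and small immune complexes, are taken in through clathrin-coated pits and in many cases recycle to the surface.

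Libraries held 29307190 to 108602421 UMIs and 1541 to 14764 barcodes past the threshold. The endothelial gate took 108 (D3 B) to 6906 (D9 A) barcodes per library, with 3556 for D0 A and 594 for D0 B, and the median barcode held 2317 to 7843 UMIs, with D0 B and D0 A the shallowest. All 8 sinusoidal markers, among them Gpr182, Oit3 and Kdr, were detected in the gate of every library. Barcodes with at least 2 UMIs of Gpr182, Oit3, Ehd3, F8 and Dnase1l3, and more of these than of large-vessel genes, made up 72.0% (D25 B) to 96.4% (D3 A) of the gate, so the label sinusoidal matched its markers. At least 1 UMI of the Kupffer cell genes Clec4f, Vsig4 or Cd5l was found in 1.52% (D0 B) to 47.6% (D19 A) of endothelial barcodes, and of the lymphatic genes Prox1, Mmrn1 or Ccl21a in 1.35% (D0 B) to 17.9% (D25 B). Doublets were not called, and the part of such barcodes in the levels was tested only by leaving them out. Libraries shared at most 49 barcodes in any of 78 pairs, and at most 0.519% of the smaller library.

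In the GRCm38 annotation (GENCODE), Stab1 lies at chr14:31139013-31168641 on the minus strand, where it overlaps the protein-coding gene Nt5dc2 on the opposite strand. Stab2 lies at chr10:86841198-87008025 on the minus strand, with 5 antisense or pseudogene models across from it. Mrc1 is at chr2:14229392-14332057 (plus strand), Lyve1 at chr7:110850607-110863239, Fcgr2b at chr1:170958617-170976547, Clec4g at chr8:3707064-3720651, Cd36 at chr5:17781690-17888801 and Scarb1 at chr5:125277087-125341094 (all minus strand). Fcgr2b and Clec4g each have an antisense model, Gm38204 and Gm16553. On the same strand, Mrc1 overlaps the microRNA gene Mir511 and Scarb1 the model Gm42633. Whether the counting used strand is not given in the sources used here, so reads of these overlapping genes may not have been told apart, and Fcgr2b shares sequence with the related receptor gene Fcgr3. UMIs fall near the 3′ end, so levels are compared for 1 gene between cells and libraries and never between genes.

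Promoters of 6 of the 9 genes were matched in the RefSeq table used here, those of Stab1, Stab2, Mrc1, Fcgr2b, Clec4g and Cd36. The 250 bases before the start (GRCm38.p6) are shown for the stabilins, which differ in where they are expressed despite their shared family. They are also shown for Cd36, which differed most between the central and portal-side barcodes described below, a split added after the data were seen. All 3 lie on the minus strand and are written 5′ to 3′, Stab1 at chr14:31168642-31168891, Stab2 at chr10:87007943-87008192 and Cd36 at chr5:17835897-17836146. Capitals mark CAGGAA on either strand, a core that ETS factors bind. Part of the Stab2 window and all of the Cd36 window lie inside the span that GENCODE gives the gene.
Stab1: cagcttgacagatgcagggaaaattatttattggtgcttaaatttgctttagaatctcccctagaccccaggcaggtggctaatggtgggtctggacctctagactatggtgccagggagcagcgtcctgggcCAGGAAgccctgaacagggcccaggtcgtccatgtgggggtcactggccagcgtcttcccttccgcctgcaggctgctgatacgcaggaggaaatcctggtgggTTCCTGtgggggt
Stab2: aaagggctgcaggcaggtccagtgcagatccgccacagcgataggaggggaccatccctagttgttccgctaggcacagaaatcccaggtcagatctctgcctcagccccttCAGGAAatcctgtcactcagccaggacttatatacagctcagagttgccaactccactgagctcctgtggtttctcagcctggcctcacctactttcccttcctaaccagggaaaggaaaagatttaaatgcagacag
Cd36: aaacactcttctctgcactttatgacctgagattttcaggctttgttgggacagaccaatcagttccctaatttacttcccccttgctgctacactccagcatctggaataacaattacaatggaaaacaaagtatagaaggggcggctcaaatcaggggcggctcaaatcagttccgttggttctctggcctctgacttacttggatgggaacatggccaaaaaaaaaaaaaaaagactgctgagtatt
The Stab1 window held CAGGAA at 117 and 13 bases before the start, the Stab2 window at 138 bases, and the Cd36 window held no match. Among the 6 promoters 4 held a match, beside 25.7% of all 32851 RefSeq promoters of this length. AGATAA or TGATAA on either strand, which GATA factors bind, was found in 0 of the 6 and in 16.6% of all. No 2 matches overlapped, and a match describes the letters of the window only.

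To ask which endothelial cells carry the receptors, sinusoidal-marker barcodes were compared with large-vessel-marker barcodes (Vwf, Cd34, Ly6a, Cldn5, Sox17) of the same library in the 11 libraries with at least 20 of each. No member was used to define either side. edgeR's quasi-likelihood test, with the library as a block and Benjamini-Hochberg adjustment over all genes, placed 8 of the 9 members higher in sinusoidal-marker barcodes and Colec12 lower, where 39.1% of 8897 genes were called, 18.5% as higher and 20.6% as lower. The median log2 fold change was 1.44 over the members and -0.03 over all genes.

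Fcgr2b, the inhibitory IgG receptor that takes up small immune complexes in LSEC, ranged from 1484 to 2843 CPM in sinusoidal-marker barcodes (median 2243) and from 13.2 to 347 CPM in large-vessel-marker barcodes (median 177). The ranges did not overlap, and the log2 difference was 3.77 ± 0.29 (SE, n = 11 libraries, edgeR adjusted p = 3.61e-08). Stab2, a stabilin that clears hyaluronan, ranged from 293 to 718 CPM (median 544) against 13.2 to 104.5 CPM (median 47.6), a log2 difference of 3.67 ± 0.25. Mrc1, the mannose receptor for mannosylated glycoproteins and collagen fragments, reached 1374 to 2462 CPM against 33.1 to 452 CPM (log2 3.08 ± 0.23). Clec4g, the C-type lectin known as LSECtin, was higher by log2 2.79 ± 0.26. These 4 were higher on the sinusoidal side in 11 of 11 libraries. The 13.2 CPM of Fcgr2b and of Stab2 on the large-vessel side came from 2 UMIs each, in D0 B with 36 such barcodes.

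The other receptors were less separated. Cd36, a class B scavenger receptor for long-chain fatty acids and oxidized lipoproteins, was higher on the sinusoidal side by log2 1.44 ± 0.25 and in 10 of 11 libraries, D5 B being the exception. Scarb1, the class B receptor for high-density lipoprotein, was higher by log2 1.07 ± 0.12 in 11 of 11 libraries. Stab1, the second stabilin, was higher by log2 0.92 ± 0.31 (edgeR adjusted p = 0.0263) and in 9 of 11 libraries. Its adjusted p was 0.0623 without D0 A and 0.0571 without D3 A. Colec12, a collectin-type scavenger receptor with a collagen-like stalk and a lectin head, was lower on the sinusoidal side by log2 -1.40 ± 0.29 (edgeR adjusted p = 0.00121), with 4.13 to 21.5 CPM against 0 to 108 CPM. It was lower there in 8 of 11 libraries and higher in 3.

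Lyve1, a hyaluronan receptor of sinusoidal and of lymphatic endothelium, was higher on the sinusoidal side by log2 1.41 ± 0.46 (edgeR adjusted p = 0.0233) and in 8 of 11 libraries. Its level in large-vessel-marker barcodes ranged from 41.3 to 1731 CPM, the highest value in D25 B and the next in STOP with 1198 CPM. In the endothelial gate, lymphatic markers summed to 681 CPM in D25 B and 526.1 CPM in STOP, the highest of the 13 libraries, and their part in the Lyve1 level of these barcodes was not tested. Without D19 B the adjusted p for Lyve1 was 0.0536, and with at least 50 barcodes per library it was 0.0656.

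**Figure D1:**
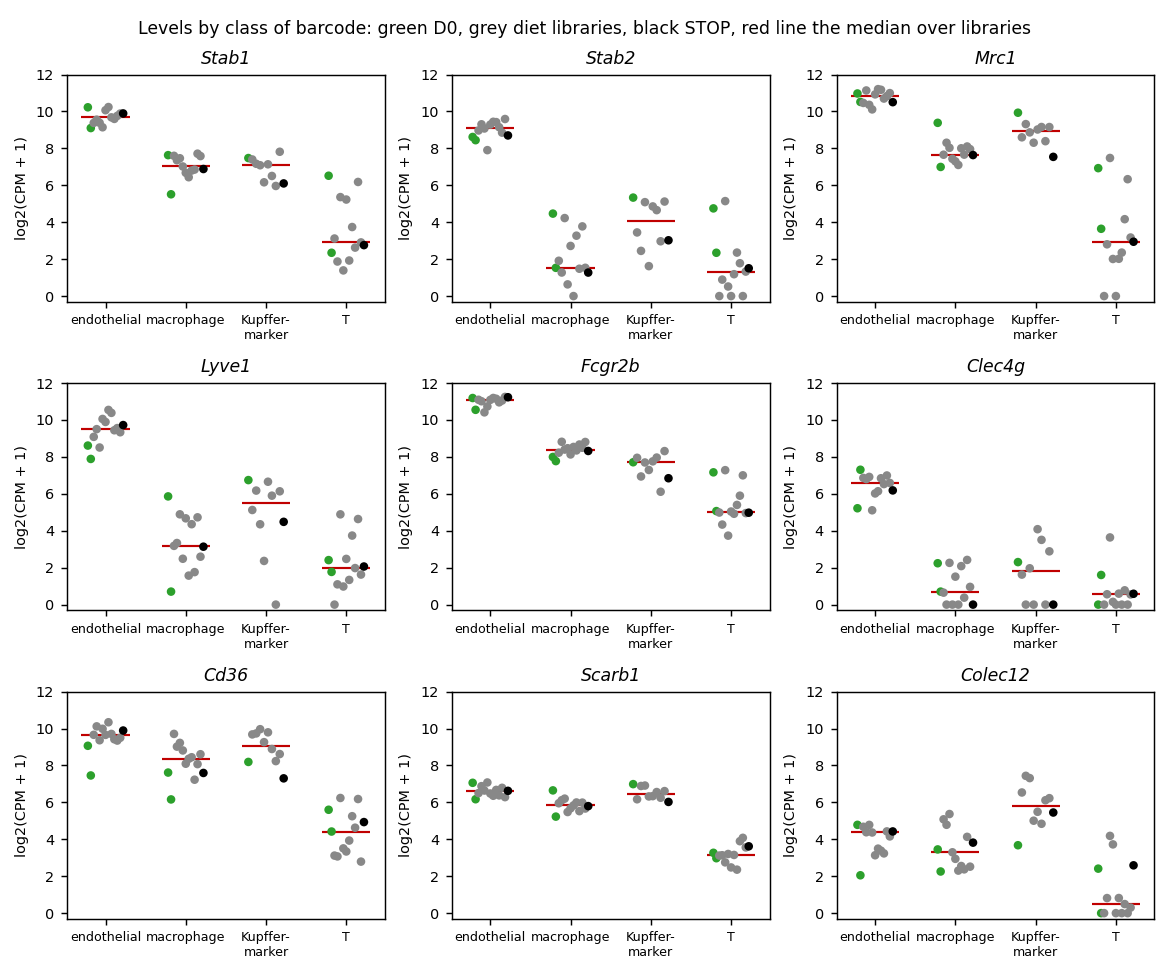
Level of each receptor gene as log2(CPM + 1) in endothelial, macrophage, Kupffer-marker and T barcodes, 1 point per library, with D0 in green, DDC diet in grey, STOP in black and the median as a red bar. Stab2, Clec4g and Lyve1 stand high in endothelial barcodes and near the T barcodes in macrophages, whereas Cd36, Scarb1 and Colec12 overlap between endothelial and Kupffer-marker barcodes.

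Macrophages were taken as barcodes with at least 5 UMIs of C1qa, C1qb and C1qc and at least 1 of Csf1r or Adgre1. Barcodes with Cdh5, Epcam or Cd3e, or in the endothelial gate, were left out, and 5950 remained. Barcodes with at least 2 UMIs of Clec4f, Vsig4 and Timd4 made up 40.0% of them in D0 A and 5.88% in D0 B, whose protocol sorted Cd64- cells. Set against macrophages within each of 13 libraries, endothelial barcodes had higher levels of 8 of the 9 members. Over all 10404 genes, 81.7% were called and 42.3% were higher. Stab2 differed by log2 6.65 ± 0.45, Clec4g by 5.92 ± 0.38 and Lyve1 by 5.76 ± 0.48. Mrc1 differed by 2.63 ± 0.17, Stab1 by 2.32 ± 0.18 and Fcgr2b by 2.29 ± 0.11, each higher in 13 of 13 libraries. Cd36 differed by 0.96 ± 0.18 and was higher in 12 of 13 libraries, D19 A being the exception, and Scarb1 by 0.44 ± 0.07 in 13 of 13. Colec12 differed by 0.08 ± 0.20 (edgeR adjusted p = 0.724).

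Shares of barcodes with a UMI were taken after each barcode was thinned to 1500 UMIs, with T cells (12161 barcodes with at least 2 UMIs of Cd3d, Cd3e and Cd3g) as the background of free RNA. The median barcode held 2317 to 7843 UMIs in endothelial, 4629 to 19060.5 in macrophage and 2233 to 7485 in T gates. Stab1 was found in 48.0% to 77.1% of endothelial barcodes, in 7.98% to 26.3% of macrophages and in 0% to 11.1% of T barcodes. Stab2 was found in 24.7% to 56.3% of endothelial barcodes, but in only 0% to 3.75% of macrophages and 0% to 4.76% of T barcodes. The stabilins thus stood apart in macrophages, where Stab1 exceeded the T share in 13 of 13 libraries and Stab2 in 10 of 13 with at most 3.75% of barcodes. Lyve1 in macrophages stayed between 0% and 5.00% and Clec4g between 0% and 1.88%, beside T shares of up to 3.92% and 1.96%. Colec12 was found in 0% to 4.80% of macrophages and exceeded the T share in 11 of 13 libraries, and its level was 3.78 to 40.3 CPM in macrophages (median 8.82) against 0 to 17.2 CPM in T barcodes (median 0.406). Mrc1, Fcgr2b, Cd36 and Scarb1 exceeded the T share in macrophages of 13 of 13 libraries, beside T shares of up to 21.6%, 13.7%, 10.8% and 3.1%. The T gate held 32 to 2483 barcodes per library, and at most 63 in protocol A. Before thinning, Stab1 was found in 62.1% to 96.1% of endothelial and 19.3% to 73.2% of macrophage barcodes, and Stab2 in 51.0% to 87.5% and 0% to 10.7%.

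**Figure D2:**
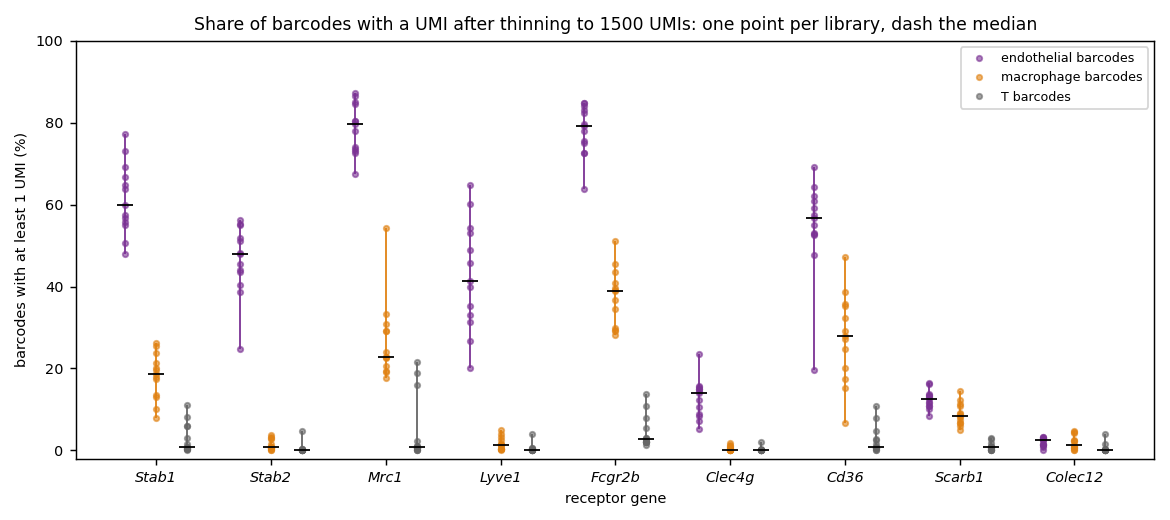
Percent of barcodes with at least 1 UMI of each gene after thinning to 1500 UMIs, 1 point per library, in endothelial, macrophage and T barcodes, with a dash at the median. Every endothelial share lies above its T share except that of Colec12, which exceeded it in 12 of 13 libraries, and the macrophage shares of Stab2, Lyve1, Clec4g and Colec12 do not pass 5.00%.

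Of all UMIs of a member in barcodes past the threshold, summed over the libraries, 76.8% lay in the endothelial gate for Stab2, 75.4% for Lyve1, 74.5% for Clec4g, 69.4% for Stab1, 68.3% for Mrc1 and 67.5% for Fcgr2b. The pooled share of the endothelial gate was 50.4% for Cd36, 38.6% for Scarb1 and 18.9% for Colec12, and macrophages held 11.3%, 8.13% and 8.06% of all UMIs of these genes. Pooling gives the libraries with many endothelial barcodes the most weight, and the median over the 13 libraries was lower for every member. It was 66.1% for Stab2 (38.3% to 88.9%), 64.4% for Lyve1, 60.1% for Mrc1, 59.4% for Stab1, 58.4% for Clec4g, 41.6% for Fcgr2b (28.3% to 86.8%), 27.6% for Cd36 (12.7% to 79.4%), 15.2% for Scarb1 and 15.1% for Colec12. These shares depend on how many cells of each kind were sorted. Together the 9 genes made up 0.450% (D0 B) to 0.956% (D3 B) of all UMIs of endothelial barcodes.

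Among macrophages, the members divided by Kupffer markers. Kupffer-marker barcodes, with at least 2 UMIs of Clec4f, Vsig4 and Timd4, numbered at least 20 in 10 libraries. There Colec12 was at 11.8 to 172 CPM (median 56.1) in these barcodes. In macrophages with none of these UMIs it was at 0.660 to 24.0 CPM (median 5.78), lower in 10 of 10. Scarb1 and Stab2 were also higher in 10 of 10 libraries, Mrc1 in 9 and Cd36 in 8. Stab2 was at only 2.08 to 39.3 CPM in Kupffer-marker barcodes, beside 239 to 685 CPM in endothelial barcodes of these libraries. All Kupffer-marker barcodes together held 121 UMIs of it, and the part of free RNA or doublets was not tested. Fcgr2b went the other way, with 68.3 to 318 CPM in Kupffer-marker barcodes and 243 to 482 CPM in the others, lower in 10 of 10, and Stab1 was lower in 8 of 10. This contrast was not tested. Against Kupffer-marker barcodes alone, endothelial barcodes had higher levels of Stab1, Stab2, Mrc1, Lyve1, Fcgr2b and Clec4g in the same test. Over all genes this fit called 6232, of which 3456 were higher and 2776 lower. The share of tested genes called is not given for this fit, so the calls of the members cannot be set against it. The difference was log2 0.37 for Cd36 (edgeR adjusted p = 0.139), -0.05 for Scarb1 (0.678) and -2.13 for Colec12 (4.80e-06), so that Colec12 was lower in endothelial barcodes than in Kupffer-marker barcodes.

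Whether the diet changed the receptors was asked by comparing the 10 DDC libraries with the 2 of steady state, with the protocol as a term. In endothelial barcodes none of the 9 members passed the edgeR threshold, where 0.445% of 13948 genes did. At an unadjusted p under 0.05, 1742 genes passed, and DESeq2 called 357 genes and 2 members, Lyve1 and Cd36. The median log2 fold change was 0.22 over the members and -0.02 over all genes. In simulated data of this design, 62.5% of genes given a log2 change of 2 were recovered.

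**Figure D3:**
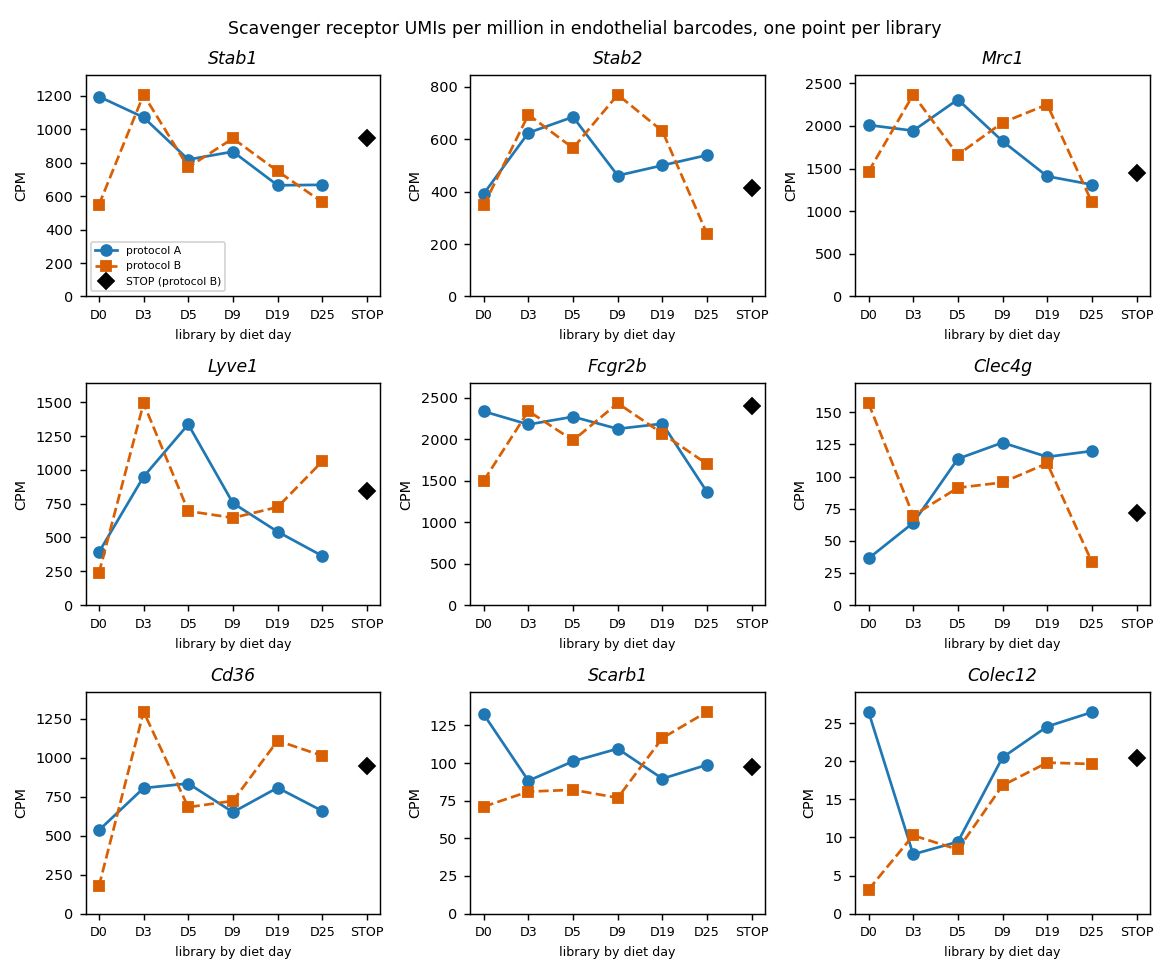
CPM of each receptor gene in endothelial barcodes by day of DDC diet, 1 point per library, with protocol A as blue circles, protocol B as orange squares and STOP as a black diamond. Cd36 lies above the D0 library of its protocol in all 10 DDC libraries, and Colec12 lies lower on D3 and D5 than on D9 to D25.

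Cd36 stood at 535 CPM in D0 A and 175 CPM in D0 B. The DDC libraries ranged from 651 to 1295 CPM with a median of 807 CPM, and all 10 lay above both D0 libraries. In protocol A they were 805 (D3), 835 (D5), 651 (D9), 808 (D19) and 658 CPM (D25), and in protocol B 1295, 683, 723, 1109 and 1013 CPM in the same order. The protocols overlapped under the diet, whereas their D0 libraries were far apart. The log2 difference from D0 was 1.43 ± 0.36 (SE, n = 12, edgeR adjusted p = 0.117), and it was 2.34 (0.00765) with D0 A left out and 0.84 with D0 B left out. Within protocol B it was 2.30 (0.0492), within protocol A 0.82 (0.168), and across the settings that keep all 12 libraries or 1 protocol the adjusted p lay between 0.000464 and 0.168. The thinned share of barcodes with Cd36 was 47.7% in D0 A against 19.5% in D0 B, and it was 52.6% to 69.3% in the 10 DDC libraries, all above both.

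Lyve1 was at 391 CPM in D0 A and 236 CPM in D0 B. The DDC libraries ranged from 363 to 1494 CPM with a median of 739.6 CPM, and only D25 A with 363 CPM was below a D0 library. At onset it was at 950.0 (D3 A), 1494 (D3 B), 1337 (D5 A) and 695 CPM (D5 B), and in progression at 363 to 1064 CPM (median 685), so the stages overlapped. The log2 difference was 1.51 ± 0.35 (n = 12, edgeR adjusted p = 0.0994), 1.24 within protocol A (0.119) and 1.78 within protocol B (0.101). It passed without D0 A (1.83, 0.0402), in DESeq2 (0.00118) and without a filter on low counts (0.000134). Cells were sorted on the Lyve-1 protein, and whether the sort shaped these levels was not tested.

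The stabilins did not pass the test. Stab2 was at 392 CPM in D0 A and 348 CPM in D0 B. The DDC libraries ranged from 239 (D25 B) to 770.0 CPM (D9 B) with a median of 595 CPM. All but D25 B lay above both D0 libraries, and the log2 difference was 0.73 ± 0.34 (edgeR adjusted p = 0.402). Stab1 was at 1196 CPM in D0 A against 548 CPM in D0 B. The 5 DDC libraries of protocol A, from 665 to 1072 CPM, lay below D0 A while the 5 of protocol B, from 564 to 1207 CPM, lay above D0 B. Its log2 difference was 0.11 ± 0.28, with -0.21 within protocol A and 0.46 within protocol B. In sinusoidal-marker barcodes, Stab1 lay above the D0 library of the same protocol in 4 of 10 DDC libraries.

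For Mrc1, Fcgr2b and Scarb1 the D0 and DDC values overlapped in endothelial barcodes. Mrc1 was at 2009.6 CPM in D0 A, 1464 CPM in D0 B and 1105 to 2366 CPM under DDC (median 1882), a log2 difference of 0.18 ± 0.28. Fcgr2b was at 2335 CPM in D0 A, 1499 CPM in D0 B and 1363 to 2434 CPM under DDC (median 2151), a log2 difference of 0.24 ± 0.24. In protocol A its CPM lay below D0 A in all 5 DDC libraries, while the fitted log2 difference, which uses TMM scaling, was 0.12. Scarb1 was at 132 CPM in D0 A, 71.0 CPM in D0 B and 76.9 to 134 CPM under DDC, a log2 difference of 0.09 ± 0.21.

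Clec4g took opposite directions in the libraries of the protocols. It was at 36.3 CPM in D0 A and at 64.0 (D3), 114 (D5), 126 (D9), 115 (D19) and 119.9 CPM (D25) in protocol A, all above D0 A. In protocol B it was at 157 CPM in D0 B and at 69.6, 91.3, 95.4, 110.4 and 33.5 CPM in the same order, all below D0 B. The log2 difference was -0.01 ± 0.54 over both protocols, 1.87 within protocol A (edgeR adjusted p = 0.0117) and -1.11 within protocol B (0.258). In each fit within a protocol, or with a D0 library left out, the lone D0 library is assumed to vary like the DDC libraries. A test of the difference between the protocols, added after this pattern was seen, gave -2.92 ± 0.69 (edgeR adjusted p = 0.0494), with 2.2% of 13948 genes called. Each protocol has 1 D0 library, so a difference between protocols and a difference between the D0 libraries cannot be told apart.

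**Figure D4:**
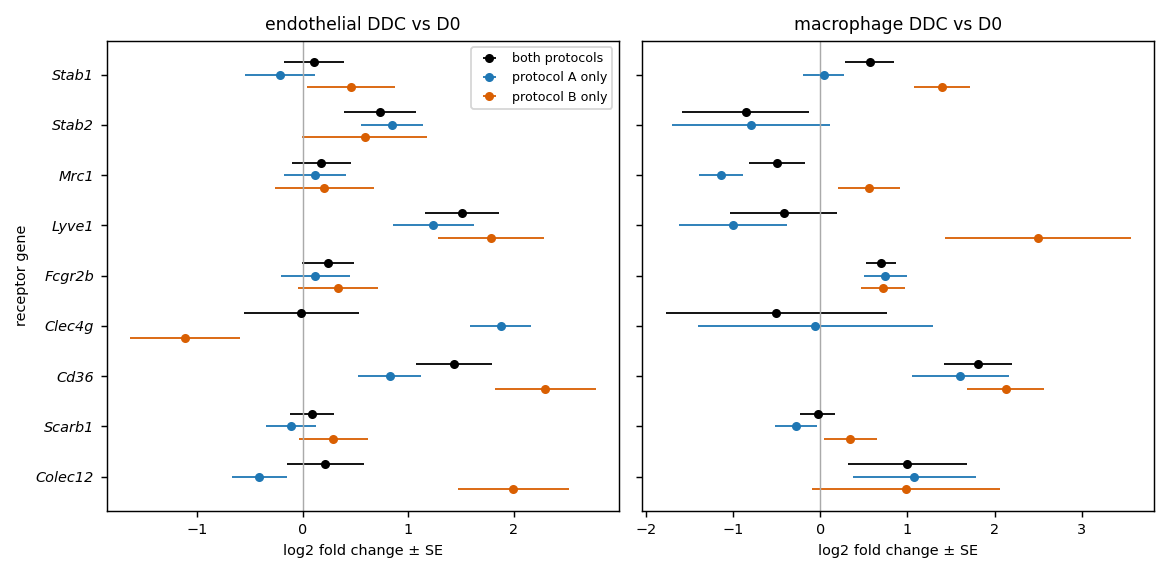
Log2 fold change of DDC against D0 for each receptor gene, with its standard error, in endothelial and macrophage barcodes, fitted over both protocols and within protocol A or B. Cd36 lies above 0 in every fit, at 1.43 in endothelial and 1.81 in macrophage barcodes over both protocols, and Clec4g lies on opposite sides of 0 in the endothelial barcodes of protocols A and B.

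Along the diet, progression was compared with onset. None of the 9 members passed the edgeR test, where 0.0645% of 13948 genes did (1359 at an unadjusted p under 0.05 and 146 in DESeq2). Colec12 was at 7.79 (D3 A), 10.3 (D3 B), 9.43 (D5 A) and 8.42 CPM (D5 B) at onset, and at 16.8 to 26.5 CPM in the 6 libraries of progression (median 20.2), without overlap. Its log2 difference was 1.27 ± 0.32 (n = 12, edgeR adjusted p = 0.265), and it passed in DESeq2 (0.0102), without a filter (0.000974), within protocol A (1.51, 0.00987) and with D0 A (0.0251) or D0 B (0.0176) left out, but not within protocol B (0.95, 0.999). At D0 it was at 26.5 CPM in D0 A and 3.14 CPM in D0 B, the latter from 5 UMIs. The 2 D0 libraries thus lay at either end of the diet values, and the log2 difference of DDC from D0 was 0.22 ± 0.36 (edgeR adjusted p = 0.866). It was 2.02 (0.0284) with D0 A left out and -0.39 (0.487) with D0 B left out.

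Genes of other cell types moved with the stage in the endothelial gate. The 6 macrophage markers summed to 195 to 362 CPM at onset and to 418 to 773 CPM in progression, without overlap, and Kupffer markers to 129 to 217 CPM (median 167) and 154 to 423 CPM (median 275). Neutrophil markers summed to 0 to 13.3 CPM at onset (median 8.16) and to 4.53 to 360.3 CPM (median 249.7) in progression. At D0 they summed to 52.7 CPM in D0 A and 422 CPM in D0 B. T cell markers summed to 2.10 and 229 CPM and B cell markers to 14.2 and 292 CPM in D0 A and D0 B. Each of these sums in D0 B was the highest of the 13 libraries. Sinusoidal-marker barcodes made up 93.5% of the gate in D0 A and 81.1% in D0 B. The part of such cells in the receptor levels of D0 B was not tested. The 6 markers of stellate cells and fibroblasts summed to 2247 CPM in D0 A against 72.9 CPM in D0 B, to 91.6 to 230 CPM at onset (median 172) and to 72.4 (D19 B) to 2124 CPM (D25 B) in progression (median 547). Without Kupffer-marker barcodes the log2 difference of Colec12 was 1.27 ± 0.32 (edgeR adjusted p = 0.285), and in sinusoidal-marker barcodes 1.06 ± 0.26 (0.236). In barcodes under 100 UMIs, which hold free RNA, Colec12 was at 8.40 (D3 A), 2.59 (D3 B), 11.7 (D5 A) and 0.938 CPM (D5 B) at onset. In progression it was at 18.2 (D9 A), 1.77 (D9 B), 46.4 (D19 A), 5.38 (D19 B), 25.9 (D25 A) and 21.3 CPM (D25 B) there. The part of free RNA, stellate cells, fibroblasts, neutrophils and other macrophages in the endothelial Colec12 level was not tested. In sinusoidal-marker barcodes alone, Colec12 was at 7.76 (D3 A), 10.2 (D3 B), 9.74 (D5 A) and 8.37 CPM (D5 B) at onset and at 12.8 to 21.5 CPM in progression, again without overlap.

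The other members did not pass between onset and progression either. The log2 difference was -0.76 ± 0.26 for Lyve1 (edgeR adjusted p = 0.361), -0.43 ± 0.23 for Stab1, -0.36 ± 0.22 for Mrc1 and -0.33 ± 0.27 for Stab2. It was -0.19 for Fcgr2b, -0.17 for Cd36, 0.20 for Scarb1 and 0.23 for Clec4g. Stab2 was at 566 to 694 CPM in the 4 onset libraries and 239 to 770.0 CPM in the 6 of progression, which overlapped.

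Sinusoids are zoned between portal tract and central vein, and a planned split of sinusoidal-marker barcodes by a single UMI of Wnt2, Wnt9b or Kit was meant to separate them. It took 71.8% to 85.6% of the barcodes as positive, so it does not set a zone apart, and the positive barcodes were deeper, with medians of 2284 to 9023 UMIs against 2123 to 6631. In it 19.3% of 9571 genes were called, 7.93% as higher and 11.4% as lower. Stab2 (log2 0.43), Lyve1 (0.40), Stab1 (0.39), Mrc1 (0.27) and Scarb1 (0.23) were higher in the positive barcodes, and Cd36 (-0.35) and Colec12 (-0.57) were lower. Fcgr2b (0.14) and Clec4g (0.12) did not pass.

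A narrower split was added after the data were seen. Barcodes with at least 2 UMIs of Rspo3 and Wnt9b, which the endothelium at the central vein expresses, were set against barcodes with at least 2 UMIs of Efnb2, Dll4 and Ltbp4, which mark the portal side, and none of Wnt2, Wnt9b and Rspo3, in 11 libraries. Kit, a pericentral gene used on neither side, was at 625.2 to 1056 CPM in the central and 172 to 421 CPM in the portal-side barcodes and was higher in 11 of 11. Of the members, 7 of 9 were lower in central barcodes and no member was higher. Over all 9675 genes, 25.7% were called and 13.8% were lower. The 7 members were also lower in large-vessel-marker barcodes, as was Scarb1. Whether the central barcodes came from the sinusoid or from the wall of the central vein was not tested.

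**Figure D5:**
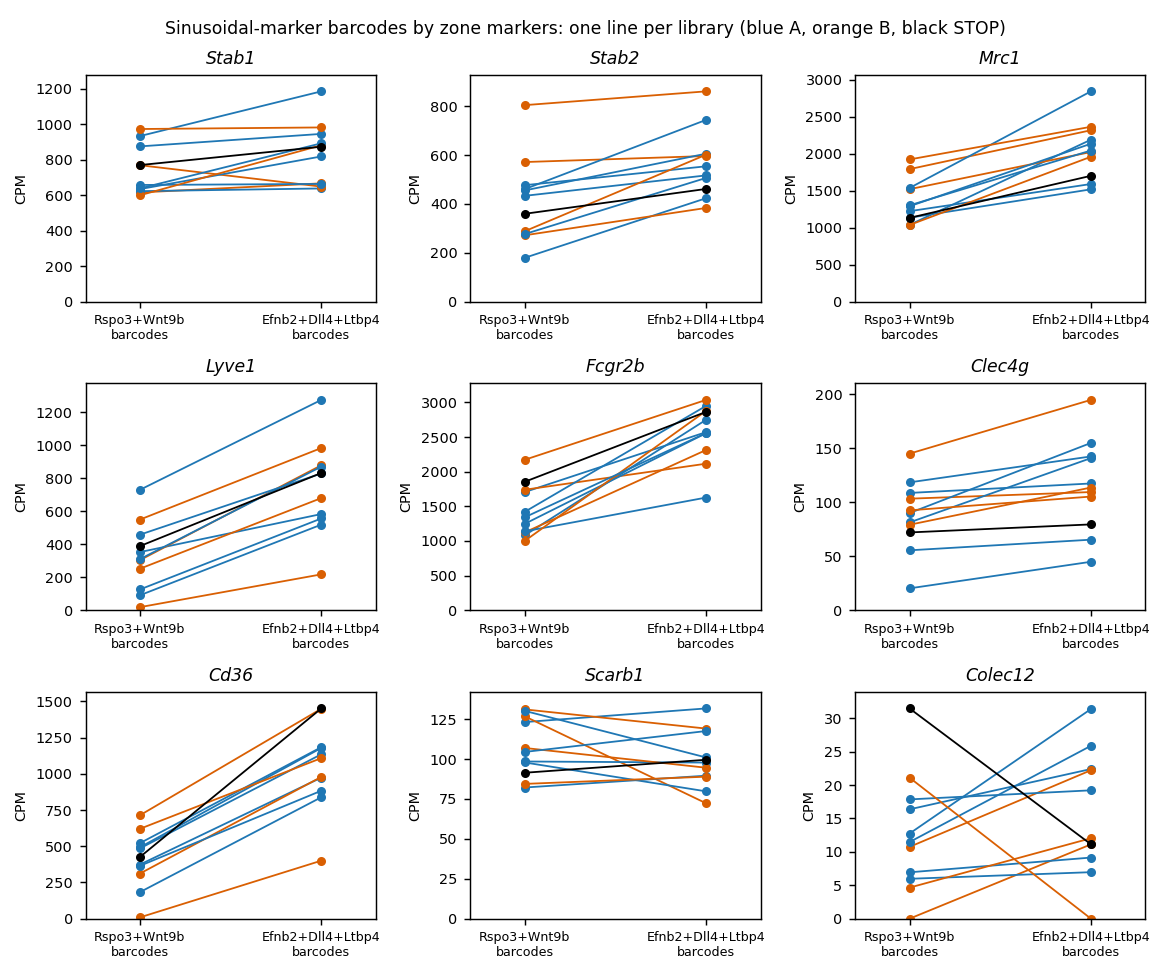
CPM of each receptor gene in central (Rspo3 and Wnt9b) and portal-side (Efnb2, Dll4 and Ltbp4) sinusoidal-marker barcodes, with 1 line per library for 11 libraries. The lines of Cd36, Lyve1, Fcgr2b, Mrc1, Stab2 and Clec4g rise towards the portal side in 11 of 11 libraries, and those of Scarb1 cross.

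Cd36 differed most, with 9.06 to 714 CPM in central barcodes (median 426) and 400.4 to 1451 CPM in portal-side barcodes (median 1108). The log2 difference was -1.47 ± 0.12 (n = 11, edgeR adjusted p = 1.42e-09), lower in 11 of 11 libraries. Lyve1 was at 18.1 to 729 CPM (median 309) against 217 to 1274 CPM (median 828), a log2 difference of -1.40 ± 0.14. The lowest central values of Cd36 and Lyve1 came from 1 and 2 UMIs, in D0 B with 34 central barcodes. Fcgr2b was at 999.8 to 2172 CPM (median 1341) against 1626 to 3037 CPM (median 2572), a log2 difference of -0.92 ± 0.09. The ranges over libraries overlapped for these 3 genes, while the direction within a library did not vary.

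The log2 difference was -0.68 ± 0.07 for Mrc1, -0.58 ± 0.09 for Stab2 and -0.50 ± 0.09 for Clec4g, each lower in 11 of 11 libraries. Stab1 was lower by log2 -0.25 ± 0.06 in 10 of 11. Colec12 did not pass (-0.52 ± 0.20, edgeR adjusted p = 0.0655), and Scarb1 was at 82.2 to 131 CPM in central and 72.3 to 132 CPM in portal-side barcodes, a log2 difference of -0.01 ± 0.07 (0.951). For Stab1, Stab2, Mrc1 and Lyve1 the planned split had given the opposite direction. The median central barcode held 2830.0 to 9977.5 UMIs and the median portal-side barcode 2274 to 7910.0.

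In macrophages, Cd36 and Fcgr2b rose under the diet. These were 2 of the 9 members, where 5% of 10902 genes were called and 2.11% were higher. Cd36 was at 195 CPM in D0 A against 70.5 CPM in D0 B, and it was at 149 (D5 B) to 836 CPM (D19 A) under DDC with a median of 368 CPM. Of the 10 DDC libraries, only D5 B lay below a D0 library, that of protocol A. The log2 difference was 1.81 ± 0.39 (n = 12, edgeR adjusted p = 0.0185). It was 2.13 within protocol B (0.0380) and 1.61 within protocol A (0.130), and it did not pass without D0 B (1.59, 0.0752) or in Kupffer-marker barcodes alone (1.66, 0.207).

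Fcgr2b was at 255 CPM in D0 A and 218 CPM in D0 B. Under DDC it ranged from 280 (D3 A) to 451 CPM (D19 B) with a median of 357 CPM, and the groups did not overlap. The log2 difference was 0.70 ± 0.17 (edgeR adjusted p = 0.0351), and it stayed between 0.68 and 0.73 when a library was left out. The call was lost without D0 A (0.0591), D0 B (0.0512), D3 A (0.0543), D5 A (0.0513), D5 B (0.0509), D9 B (0.0592), D19 B (0.0652) or D25 A (0.0696), within protocol A (0.121), within protocol B (0.140), without the protocol term (0.0619) and in Kupffer-marker barcodes (0.456).

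Stab1 in macrophages was at 198 CPM in D0 A, 44.7 CPM in D0 B and 85.7 to 209 CPM under DDC (median 146), a log2 difference of 0.57 ± 0.28 (edgeR adjusted p = 0.261) that passed without D0 A (1.41, 0.0131). Mrc1 was at 667 CPM in D0 A against 126 CPM in D0 B. The 10 DDC values, from 136 to 315 CPM, lay between them. Its log2 difference was -0.50 ± 0.32 (edgeR adjusted p = 0.412), 0.58 with D0 A left out and -1.15 with D0 B left out. In barcodes under 100 UMIs, which hold free RNA, Mrc1 was at 1799 CPM in D0 A and 108 CPM in D0 B. The part of free RNA in the macrophage levels was not tested. Scarb1 was at 99.4 CPM in D0 A, 36.5 CPM in D0 B and 43.5 to 72.6 CPM under DDC (log2 -0.03 ± 0.20). The log2 difference was 1.0 ± 0.68 for Colec12 (edgeR adjusted p = 0.435), -0.86 for Stab2, -0.42 for Lyve1 and -0.50 for Clec4g. None of these 4 passed. That of Lyve1 turned to 2.73 without D0 A and was -1.03 without D0 B, where its level was 0.629 CPM.

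Marker sums of other cell types moved with the diet in the macrophage gate. The 4 bile duct markers, among them Spp1, which macrophages also express, summed to 21.4 and 116 CPM at D0 and to 998 to 7454 CPM under DDC. Epcam was at 0 by the gate, and Krt19 was at 0 too in D3 A and D5 A, where the sums were 1074 and 1098 CPM. In D0 B the sum came from Spp1 alone. Krt7 was at 0 in D0 A and D0 B and was detected in D3 A and D5 A. In the remaining DDC libraries only Epcam was at 0. The part of bile duct cells in the rise was not tested. Kupffer markers summed to 2532 CPM in D0 A, 212 CPM in D0 B and 163 to 1300 CPM under DDC. Large-vessel markers summed to 293 and 330 CPM at D0 against 17.5 to 91.3 CPM under DDC, B cell markers to 18.6 and 155 against 0 to 7.43 CPM, and neutrophil markers to 596 and 4637 against 9.36 to 1098 CPM. The part of these cells in the Cd36 and Fcgr2b levels was not tested beyond the fit in Kupffer-marker barcodes above. The diet effect was not shown to differ between endothelial cells and macrophages, since 0 of the 9 members passed that test, where 1.52% of 10384 genes did (1871 at an unadjusted p under 0.05 and 279 in DESeq2). The largest differences, endothelial minus macrophage, were 1.87 ± 1.37 for Lyve1 and 1.62 ± 1.28 for Stab2. Without D0 A both turned sign, to -2.30 for Lyve1 and -0.43 for Stab2. The difference of Cd36 was -0.28 ± 0.47.

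Recovery is given by 1 library, STOP, beside D19 B of the same protocol, with no test and with exact Poisson intervals that cover counting error only. In endothelial barcodes, Cd36 was at 949 CPM (95% interval 922 to 976) in STOP and 1109 CPM (1071 to 1149) in D19 B, both far above the 175 CPM of D0 B. Stab2 was at 415 CPM (397 to 433) against 631 CPM (602 to 661), and Mrc1 at 1451 CPM (1418 to 1484) against 2251 CPM (2196 to 2306). Their D0 B values were 348 CPM and 1464 CPM, so that the Stab2 interval lay above its D0 B value and the Mrc1 interval held it. Stab1 was at 949 CPM against 750.2 CPM, with 548 CPM in D0 B, and Fcgr2b at 2405 CPM against 2068 CPM, with 1499 CPM in D0 B. Clec4g was at 71.8 CPM against 110.4 CPM, with 157 CPM in D0 B. These 3 lay further from D0 B in STOP than in D19 B. So did Lyve1, at 845 CPM against 725 CPM, with 236 CPM in D0 B. Colec12 was at 20.5 CPM (16.7 to 24.8) against 19.8 CPM (15.0 to 25.7), with 3.14 CPM in D0 B, and its intervals overlapped. Scarb1 was at 97.7 CPM against 117 CPM, with 71.0 CPM in D0 B, and so lay closer to it in STOP. The log2 ratio was 0.22 for Lyve1, -0.62 for Clec4g, -0.26 for Scarb1 and 0.05 for Colec12.

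In macrophages, Cd36 was at 192 CPM (176 to 209) in STOP and 518 CPM (501 to 535) in D19 B, a log2 ratio of -1.43, with 70.5 CPM in D0 B. The Cd36 ratio in endothelial barcodes was -0.23. Colec12 had a log2 ratio of -1.02 in macrophages, from 26.6 to 13.1 CPM, Mrc1 of -0.67, Fcgr2b of -0.50 and Stab1 of -0.48. All 5 were lower in STOP than in D19 B, and without a replicate the spread between STOP libraries is unknown. Markers of other cells differed between these libraries too. In the macrophage gates of STOP and D19 B, stellate and fibroblast markers summed to 1243 and 102 CPM, sinusoidal markers to 287 and 34.7 CPM and large-vessel markers to 211 and 17.5 CPM. In the endothelial gates stellate and fibroblast markers summed to 2087 and 72.4 CPM and lymphatic markers to 526.1 and 32.4 CPM, and their part in the values of STOP was not tested.

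Over the 13 endothelial sums, the genes whose log2 CPM followed each member most closely were named among 4555 expressed genes, as a description without a test, since the sums share libraries and depth. Cd36 was followed most closely by Msr1, which encodes the class A scavenger receptor (Pearson r = 0.93), and by Il1r1 (0.93). Stab1 was followed by Ap1b1 (0.93), a clathrin adaptor subunit, and Znfx1 (0.92), Stab2 by Rab3gap2 (0.93) and Lrrc8c (0.90), and Mrc1 by Clock and Ptprb (both 0.89). Lyve1 was followed by Serpina3g (0.86) and Vbp1 (0.85), Fcgr2b by Gimap4 (0.84) and Fzd4 (0.82), and Clec4g by Gas6 (0.92) and Lamp1 (0.91). Scarb1 was followed by Sowahc (0.93) and Ipmk (0.87), and Colec12 by Cyb5r3 (0.93) and C1qc (0.89), a macrophage gene. Between members, the closest pairs were Stab2 with Mrc1 (0.80) and Lyve1 with Cd36 (0.79).

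Genes around the receptors are given as lists. Of 31 measured other scavenger and endocytic receptors, of 28 genes of the uptake machinery and of 17 sinusoidal identity genes, none passed the test of the diet in endothelial barcodes. Their median log2 fold changes were -0.29, 0.07 and 0.11, beside -0.02 over all genes, of which 0.445% were called. In the same endothelial barcodes the 8 sinusoidal markers, which are among the identity genes, summed to 17130 (D0 A) and 19320 CPM (D0 B), to 8313 to 17296 CPM under DDC and to 17416 CPM in STOP, and D5 A lay above D0 A. In sinusoidal-marker barcodes, which 5 of these genes chose, the sums were 18520 and 25336 CPM at D0 and 9060 to 17983 CPM under DDC, without overlap. The D0 barcodes so chosen were the shallowest, with medians of 2873.5 (D0 A) and 2250.5 UMIs (D0 B). A minimum of 2 UMIs asks for a higher CPM in shallow barcodes, so gate and diet cannot be told apart here. These sums are given without a test. Of 14 capillary and large-vessel genes 2 passed, Col4a1 (1.93 ± 0.28, edgeR adjusted p = 0.0138) and Col4a2 (1.55 ± 0.23, 0.0175), the chains of basement membrane collagen IV, and the list's median was 0.50. No gene of these lists passed between onset and progression, where 0.0645% of all genes did.

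In macrophages, 4 of 25 other receptors rose under the diet, Olr1 (log2 3.35), Lrp1 (1.44), Cd68 (1.17) and Fcgr3 (0.90), and 2 fell, Timd4 (-1.79) and Clec2d (-1.11), where 2.11% of all genes were higher and 2.89% lower. The list's median was -0.34, beside -0.02 over all genes. Of 27 genes of the uptake machinery 2 rose, among them Eea1 (0.78), an early endosome tether, and the list's median was 0.19. Dnase1l3 (-3.59), the only one called of 16 sinusoidal identity genes, and Efnb2 (-3.19) and Ly6a (-3.58) of 10 capillary genes fell. Sinusoidal markers, Dnase1l3 among them, summed to 831 and 832 CPM in D0 macrophages and to 34.7 to 447 CPM under DDC, and the part of endothelial RNA in these 3 genes was not tested. Against macrophages, endothelial barcodes had higher levels of 7 and lower levels of 12 of 22 other receptors, and higher levels of 13 and lower levels of 9 of 27 uptake genes. Over all genes 42.3% were higher and 39.3% lower, and the medians of the lists were -1.05 and 0.11, beside 0.04 over all genes.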

How the data were processed

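The data are 13 droplet scRNA-seq libraries of mouse liver. The deposited values are raw UMI counts of every gene in every barcode, which the authors obtained with kallisto on GRCm38 per the labels and did not normalize. The version of kallisto is not given in the sources used here. Genes are listed by symbol, and coordinates were taken from GENCODE release 21 for mouse (GRCm38). The 9 members, the gene lists, markers and tests were chosen with earlier results of these data known.

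Barcodes with at least 1500 UMIs were kept and gated on raw UMIs, doublets were not called, and counts were summed per library and gate with at least 20 barcodes. edgeR 4.0.16 (quasi-likelihood test, TMM scaling, filterByExpr) in R 4.3.3 was run over all genes with the Benjamini-Hochberg threshold at 0.05, with the protocol as a term for diet comparisons and the library as a block for comparisons within libraries. Standard errors are the log2 fold change divided by the square root of F. Shares were taken from counts thinned to 1500 UMIs per barcode with seed 20. Poisson intervals are exact at 95%. Libraries held 29307190 to 108602421 UMIs, and the gates with few barcodes (108 endothelial barcodes in D3 B) have the widest counting error. Intervals cover counting error only. Where 200 genes of simulated data were given a log2 change of 2, the fits recovered 62.5% (endothelial diet), 74.5% (progression against onset), 67.5% (macrophage diet), 93% (endothelial against macrophage), 89% (sinusoidal against large vessel), 92% (planned zone split) and 66.5% (difference of diet effects). The protocol by diet test recovered 59% at a log2 of 4.

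Every member is named. For each gene list the counts called, the median and up to 2 called genes per direction of the endothelial diet comparison are given, with called genes of macrophages named after their values were seen. Not every called gene of the lists is reported here. Pattern-like genes are the 2 with the highest Pearson correlation per member among genes that averaged 5 or more in log2 CPM, without predicted, mitochondrial and ribosomal genes. Alternatives were DESeq2 1.42.0, no filter, 3000 UMIs per barcode, 50 barcodes, other gates, no protocol term, single protocols and leaving out each library. Leaving out lymphatic-marker barcodes, the central against portal-side split and the protocol by diet test were added after the data were seen.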

Additional observations from a re-analysis of the deposited data

Results flagged for a closer look

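Clec4g in endothelial barcodes of D25 B was at 33.5 CPM, far below the other 5 libraries of progression, which lay between 95.4 and 126 CPM. It was the only value set apart from its group among 54 groups of libraries checked, of which chance sets apart about 1 in 20. D25 B also had the lowest share of sinusoidal-marker barcodes in the gate (72.0%), and in those barcodes Clec4g was at 43.6 CPM.

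The fitted diet difference of Clec4g in endothelial barcodes was lower in protocol B than in protocol A by -2.92 on the log2 scale (protocol B minus protocol A, edgeR adjusted p = 0.0494). This test was added after the pattern was seen, and with 1 D0 library per protocol it cannot be told apart from a difference between the D0 libraries. For Stab1, Fcgr2b, Scarb1 and Colec12 in the endothelial gate, all 5 DDC libraries of protocol A lay below D0 A in CPM and all 5 of protocol B lay above D0 B. In sinusoidal-marker barcodes this did not hold in every library for Stab1, Scarb1 and Colec12. There 4 of 10 DDC libraries lay above the D0 library of their protocol for Stab1, 5 for Fcgr2b, 2 for Scarb1 and 7 for Colec12. The fitted difference, protocol B minus protocol A, was 0.76 for Stab1 (adjusted p = 0.423), 0.30 for Fcgr2b (0.709), 0.51 for Scarb1 (0.433) and 2.44 for Colec12 (0.193), and none of these 4 passed the test of the difference.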

How the results depend on the processing

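Of the values of single members under all settings, 1176 stayed on their side of the threshold and kept their direction, 21 lost a call, 17 gained one and 51 changed sign. The cause was not tested. Comparisons within libraries had the library as a block, and comparisons of diet had the protocol as a term. For replicates, no paired analysis was possible because the labels number none in the diet comparisons, where each protocol has 1 library per day.

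Counts of called genes depended on the settings. For the endothelial diet comparison (62 genes, 19 higher and 43 lower) they were 357 in DESeq2 (159 higher, 198 lower), 949 without a filter, 128 with 3000 UMIs, 40 without the protocol term, 552 in protocol A and 306 in protocol B. Leaving out 1 library gave 17 (D25 A) to 965 (D0 A). For progression against onset (9 genes) they were 146, 805, 0 without the protocol term, 635 in protocol A and 0 in protocol B, and 0 to 28 on leaving out 1 library. For macrophages (545 genes) they were 869 in DESeq2, 1290 without a filter, where the median over all genes moved from -0.02 to 0.34, and 47 in Kupffer-marker barcodes, and 374 to 1103 (D0 B) on leaving out 1 library. For the difference of diet effects (158 genes, 49 higher and 109 lower) they were 279 in DESeq2 (154 higher, 125 lower), 85 without a filter, 303 with 3000 UMIs, 99 with Cdh5 required and 94 in sinusoidal-marker barcodes, and 2 to 176 on leaving out 1 library. The range on leaving out 1 library was 8240 to 8832 for endothelial against macrophage, 3043 to 3969 for sinusoidal against large vessel and 1557 to 1921 for the planned zone split.

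Some log2 differences changed sign with the setting, both near 0 and further from it. In the endothelial diet comparison Stab1 was -0.040 in sinusoidal-marker barcodes and -0.21 in protocol A, Clec4g 0.35 with 3000 UMIs, 0.014 without Kupffer-marker barcodes, 0.019 without the protocol term and 1.87 in protocol A, Scarb1 -0.0041 in sinusoidal-marker barcodes and -0.11 in protocol A, and Colec12 -0.24 with 3000 UMIs and -0.41 in protocol A. On leaving out 1 library, Stab1 ranged from -0.19 to 0.50, Clec4g from -1.07 to 1.90, Scarb1 from -0.088 to 0.34 and Colec12 from -0.39 to 2.02, all set by the D0 libraries. In progression against onset, Clec4g was -0.092 in protocol B, and Cd36 ranged from -0.28 to 0.070. In macrophages under the diet, Mrc1 was 0.56, Lyve1 2.50 and Scarb1 0.35 in protocol B, and Scarb1 was 0.12 without a filter and 0.037 with 3000 UMIs. The ranges on leaving out 1 library were -1.15 to 0.58 for Mrc1, -1.03 to 2.73 for Lyve1 and -0.29 to 0.36 for Scarb1.

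For endothelial against macrophage, Colec12 was -0.045 with 3000 UMIs, -0.12 without Kupffer-marker barcodes, -0.12 in sinusoidal-marker barcodes, -0.026 without lymphatic-marker barcodes and -2.13 against Kupffer-marker barcodes, and -0.020 to 0.20 on leaving out 1 library, and Scarb1 was -0.050 against Kupffer-marker barcodes. The central against portal-side split turned Stab1 (-0.25), Stab2 (-0.58), Mrc1 (-0.68), Lyve1 (-1.40), Fcgr2b (-0.92), Clec4g (-0.50) and Scarb1 (-0.011) against the planned split. In the difference of diet effects, Scarb1 was -0.045 with Cdh5 required and -0.051 in sinusoidal-marker barcodes. On leaving out 1 library, Clec4g ranged from -1.77 to 2.75, Colec12 from -1.26 to 0.57, Lyve1 from -2.30 to 3.31, Mrc1 from -0.49 to 1.31, Scarb1 from -0.18 to 0.23 and Stab2 from -0.43 to 2.74. D0 has 1 library per protocol and D0 endothelial barcodes are the shallowest, which limits each diet comparison, and Colec12 with at most 26.5 CPM in endothelial barcodes has the fewest counts.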
